A study of Homo sapiens with 24 samples.

Results

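BTG1, BTG2, BTG3, TOB1 and TOB2 are members of the BTG/TOB family, called antiproliferative because they slow cell division when overexpressed. They share an amino-terminal BTG domain that binds the CAF1 deadenylases (CNOT7 and CNOT8) of the CCR4-NOT complex, the machinery that shortens mRNA poly(A) tails. TOB proteins can also bind the cytoplasmic poly(A)-binding protein, and BTG1 and BTG2 can bind the arginine methyltransferase PRMT1. In the B lineage, BTG1 is known for recurrent deletions in B-cell precursor leukemia and BTG2 as a p53 target gene. Members were taken as every row of the count table whose RefSeq identifier mapped to 1 of the 5 gene symbols. The rule found 8 accessions of 5 genes among 64519 accessions in all.

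The libraries were made from Nalm6, an established human B-cell precursor acute lymphoblastic leukemia line. Cells had been transduced with lentivirus encoding a non-specific shRNA (shNS) or shRNA against the lysine methyltransferases G9a (shG9a, gene EHMT2) or GLP (shGLP, gene EHMT1) or against heterochromatin protein HP1γ (shHP1γ, gene CBX3). Each of the 4 lines received 100 nM dexamethasone (dex), a synthetic steroid ligand of the glucocorticoid receptor, or the same volume of ethanol for 8 h, which gave 8 groups of 3 biological replicates. The labels name a single shRNA per target, so effects of the target and of that shRNA cannot be told apart here. Because these are bulk samples, fewer cells with a transcript and less of it per cell cannot be told apart either.

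The 24 libraries held between 9289533 and 14387770 counts, with a median of 11132064.5. Levels are given as CPM, the counts-per-million of a library size scaled by upper quartile factors. Of the 11 B-cell precursor markers, CD79A, MME, IGLL1 and RAG1 were above 3 counts per library on average. The other 7, among them PAX5 and EBF1, were at or below 3, and each of these 7 genes has 2 or more accessions in the table. The 5 T-cell and 3 erythroid markers were at or below that limit, and their summed levels did not exceed 0.271 and 0.368 CPM in any library. Summed myeloid markers, of which MPO, LYZ and CD33 were above the limit and CSF1R and ITGAM were not, reached 21.1 to 34.1 CPM in the 6 shGLP libraries and 2.91 to 11.9 CPM in the others. Summed B-cell precursor markers were at 1575 to 1829 CPM in the shNS libraries, 2168 to 2914 in shG9a, 2268 to 2708 in shGLP and 1173 to 1721 in shHP1γ. Of the depleted genes, the EHMT1 accession tested was at 2.62 ± 0.837 CPM (SD, n = 3) in shGLP and 4.08 ± 0.459 in shNS cells in ethanol, a difference that did not pass the test (adjusted p = 0.0923, edgeR). In dex it was at 2.55 ± 0.460 and 3.31 ± 0.559 CPM, respectively (adjusted p = 0.410). The CBX3 accession with more counts was at 2.37 ± 0.683 CPM in shHP1γ and 3.65 ± 0.451 in shNS cells in dex (adjusted p = 0.142, edgeR), and at 2.86 ± 0.499 and 4.02 ± 0.390 in ethanol (adjusted p = 0.277). The other CBX3 accession had log2 fold changes of -0.15 in dex (adjusted p = 0.842) and -0.30 in ethanol (adjusted p = 0.644). EHMT2 was not analysed here. The check of the depletions by mRNA therefore rests on low counts in this table. Per the study, immunoblot and RT-qPCR of the cells used for sequencing showed efficient depletion of each target in both protein and mRNA.

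BTG1 and BTG2 carry the results that follow, so the sequences just upstream of their start sites are shown from the RefSeq promoter table (build GRCh38.p14). Capitals mark the half-site of the cAMP response element (CRE; TGACG, or CGTCA on the other strand), the CCAAT box (ATTGG on the other strand) and the TATA box (TATAAA). The BTG1 stretch is chr12:92145847-92146046 on the minus strand, bases 200 to 1 upstream. The BTG2 stretch is chr1:203305304-203305488 on the plus strand, bases 215 to 31 upstream.
BTG1: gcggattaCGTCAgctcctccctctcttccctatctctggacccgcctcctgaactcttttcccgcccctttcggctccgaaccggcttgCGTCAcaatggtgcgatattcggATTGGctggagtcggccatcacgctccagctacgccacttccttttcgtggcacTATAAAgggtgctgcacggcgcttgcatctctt
BTG2: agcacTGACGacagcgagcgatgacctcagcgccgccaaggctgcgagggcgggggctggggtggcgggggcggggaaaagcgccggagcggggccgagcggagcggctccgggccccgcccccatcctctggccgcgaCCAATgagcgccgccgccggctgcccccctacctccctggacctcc

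All motifs were searched on both strands in the full windows from 250 bases before to 50 after the start, which the table holds for each of the 5 genes. The CRE half-site occurred at -192 and -110 in BTG1 and at -210 in BTG2, and is present in 24.6% of 35116 human promoter windows. Both promoters also held 1 CCAAT box, at -87 in BTG1 and at -76 in BTG2, a motif in 34.6% of windows. Of the other members, TOB1, for which the table has 2 windows, held a CRE half-site at -87 and a CCAAT box at -186 in the first (starting at 50866305 on chromosome 17) and neither in the second (starting at 50867929), and BTG3 and TOB2 held neither. The full CRE, TGACGTCA, was in no window of the 5 genes and in 1.85% of all, and the GC box GGGCGG was in a window of each of the 5 genes and in 45% of all. The TATA box at -33 of BTG1, a motif in 11.5% of windows, had no counterpart in BTG2. The glucocorticoid response element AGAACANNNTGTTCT was found in no window of the 5 genes and in 1 window of the whole table. Its half-site AGAACA was also found in no window of the 5 genes, against 14.8% of all windows. These counts describe letters in 300 bases only and say nothing of more distant elements.

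BTG1 (NM_001731; GRCh37 chromosome 12, 92534054 to 92539622, minus strand) is the member with the closest kinship to BTG2 and the one deleted in leukemia. It had between 3303 and 13924 counts in each library. In shNS cells BTG1 was at 501, 481 and 479 CPM in ethanol and at 1180, 1193 and 1126 CPM in dex. In shG9a cells it was at 472, 482 and 434 CPM in ethanol and at 936, 955 and 859 CPM in dex. In shGLP cells it was at 339, 372 and 342 CPM in ethanol and at 746, 689 and 655 CPM in dex. In each of these lines the 3 dex libraries lay well above the 3 ethanol libraries, and shGLP cells were lowest in both treatments. In shHP1γ cells BTG1 was at 479, 426 and 378 CPM in ethanol and at 1034, 720 and 744 CPM in dex. Replicate 1 of the shHP1γ dex libraries stood above the other two, so that the SD there (175 CPM) was the largest of any BTG1 group.

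BTG2 (NM_006763; GRCh37 chromosome 1, 203274619 to 203278730, plus strand) had between 1666 and 6916 counts in each library. In shNS cells it was at 272, 237 and 225 CPM in ethanol and at 573, 576 and 559 CPM in dex. In shG9a cells it was at 172, 200 and 138 CPM in ethanol and at 322, 413 and 296 CPM in dex. These were the lowest mean levels of BTG2 in either treatment. In shGLP cells BTG2 was at 251, 268 and 204 CPM in ethanol and at 456, 473 and 408 CPM in dex. In shHP1γ cells it was at 287, 238 and 180 CPM in ethanol and at 484, 420 and 414 CPM in dex. Ethanol and dex libraries did not overlap in any line, whereas the ethanol libraries of shNS, shGLP and shHP1γ cells overlapped each other. The share of all accessions whose libraries separated by treatment in this way was not computed, here or for BTG1.

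TOB2 (NM_016272; GRCh37 chromosome 22, 41829498 to 41842805, minus strand), the third member with enough counts to test, had 2303 to 3710 counts per library. Its group means ran from 250.6 ± 19.8 CPM (SD, n = 3) in ethanol-treated shG9a cells to 283 ± 15.0 CPM in dex-treated shHP1γ cells. All 8 groups overlapped their neighbours in this order.

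**Figure D1:**
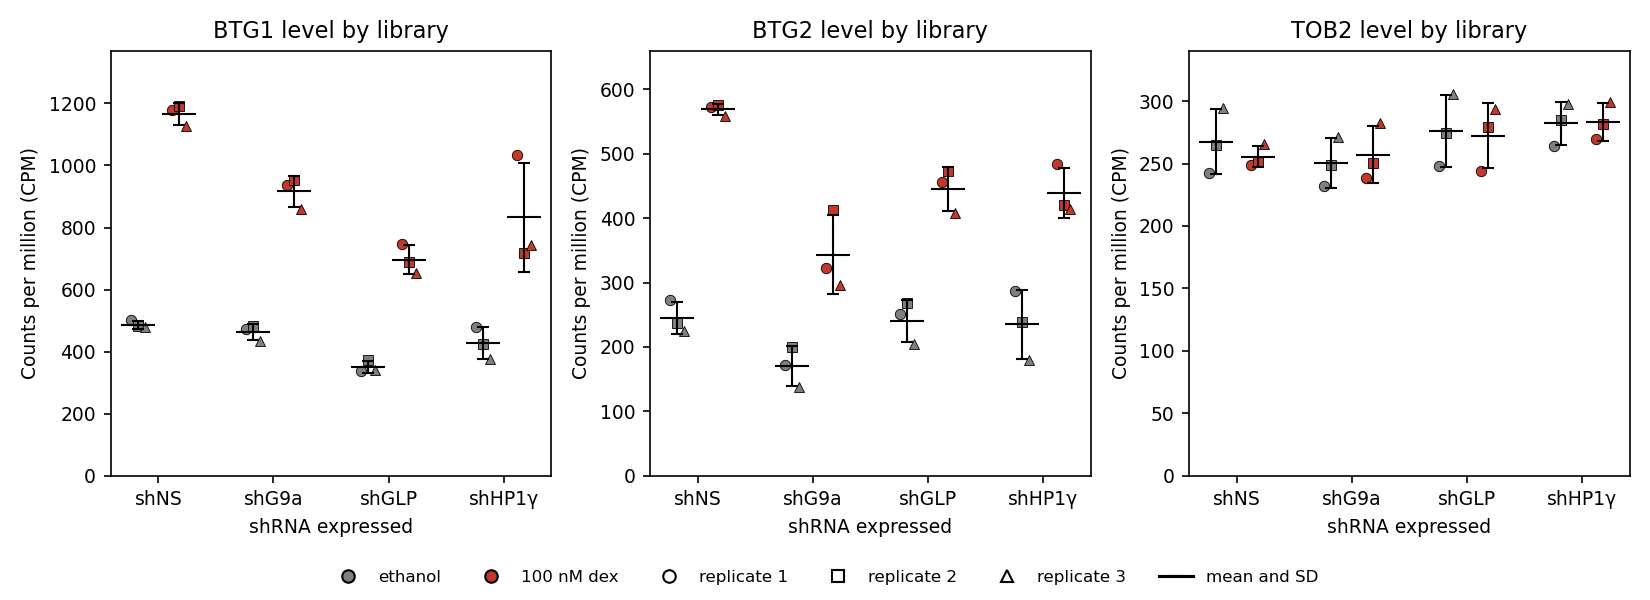
Levels of BTG1, BTG2 and TOB2 in CPM (linear axes from 0) for the 4 shRNA lines in ethanol (grey) and 100 nM dex (red); each point is 1 library, its shape the replicate number, and bars are the mean and SD of 3 libraries. BTG1 rises from 487 to 1166 CPM and BTG2 from 245 to 569 CPM in shNS cells, with lower dex levels in each depleted line, while TOB2 stays between 232 and 306 CPM in all 24 libraries.

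BTG3 (GRCh37 chromosome 21, 18965971 to 18985263, minus strand) and TOB1 (GRCh37 chromosome 17, 48939584 to 48945339, minus strand) had too few counts to pass the filter. Of the 2 BTG3 accessions, NM_001130914 had 0 to 12 counts per library with a median of 3.5, and NM_006806 was listed at 0 in all 24 libraries. The 3 TOB1 accessions (NM_001243877, NM_001243885 and NM_005749) were listed at 0 throughout. A value of 3 counts corresponded to 0.209 to 0.323 CPM depending on the library. Tested without a filter, BTG3 was called in 0 of 19 comparisons, with a lowest adjusted p of 0.307 (edgeR). Many genes with several accessions share this: 3390 of 10738 protein-coding genes with 2 or more accessions (31.6%) were at 0 in all libraries, against 1517 of 7903 with 1 accession (19.2%). How reads shared by several accessions were counted is not given in the sources used here, so a value of 0 is not read as absence of the transcript. TOB1-AS1, a noncoding gene named as antisense to TOB1 and looked at after the values were seen, had 27 to 83 counts per library.

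The first question was which members respond to dex in cells that retain G9a, GLP and HP1γ. In shNS cells both BTG1 and BTG2 rose more than 2-fold and TOB2 did not pass the test. BTG1 rose 2.39 ± 0.0723-fold (mean and SD of the 3 replicate ratios), with a log2 fold change of 1.26 ± 0.08 (SE; adjusted p = 1.07e-10, edgeR quasi-likelihood test with Benjamini-Hochberg adjustment over 10167 accessions). BTG2 rose 2.34 ± 0.209-fold, with a log2 fold change of 1.22 ± 0.10 (adjusted p = 7.84e-09, edgeR). TOB2 had a log2 fold change of -0.06 with a 95% interval of -0.16 to 0.04 (adjusted p = 0.527, edgeR). So 2 of the 3 members tested were called in this comparison, where 9.95% of all accessions passed the adjusted p threshold of 0.05. With the added requirement of a 2-fold change, which the same 2 members met, 1.91% of all accessions were called. Larger rises than that of BTG1 were found for 151 accessions (1.49% of those tested) and larger rises than that of BTG2 for 162 (1.59%).

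The same pair rose in every depleted line. In shG9a cells the fold was 1.98 ± 0.00336 for BTG1 and 2.03 ± 0.141 for BTG2 (2 of 3 members called, against 6.24% of all accessions). In shGLP cells it was 1.99 ± 0.184 for BTG1 and 1.86 ± 0.121 for BTG2 (2 of 3 members, against 3.29% of all). In shHP1γ cells it was 1.94 ± 0.235 for BTG1 and 1.92 ± 0.333 for BTG2 (2 of 3 members, against 3.22% of all). The ratio was above 1 in 3 of 3 replicates of each line for both genes, and the highest of these 6 adjusted p values was 3.18e-06 for BTG2 in shGLP cells (edgeR). TOB2 had log2 fold changes from -0.02 to 0.04 in the 3 depleted lines and passed the test in none of them.

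**Figure D2:**
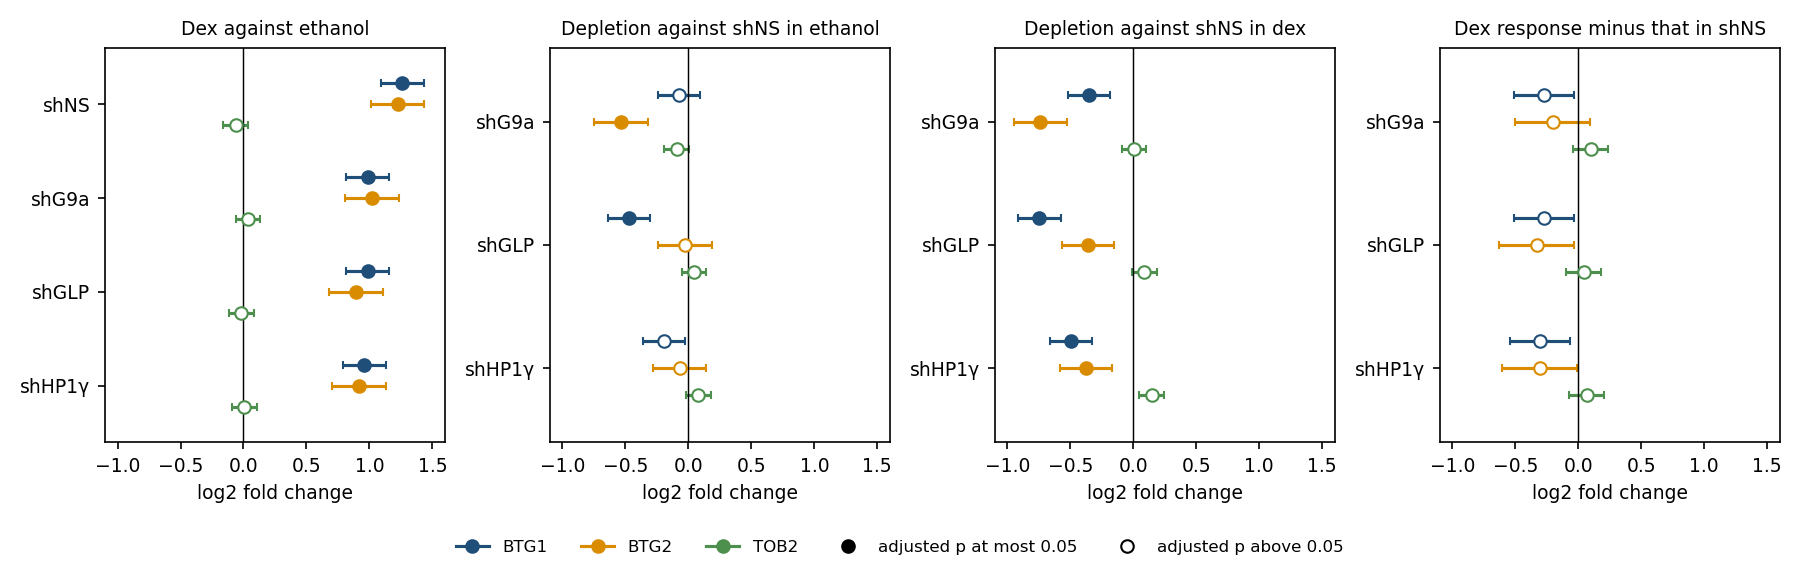
Log2 fold changes (x axes) of BTG1, BTG2 and TOB2 with 95% intervals from the model over all 24 libraries; filled points passed an adjusted p of 0.05. BTG1 and BTG2 are filled to the right of 0 for dex in all 4 lines and to the left of 0 for each depletion in dex; in ethanol only BTG2 in shG9a cells and BTG1 in shGLP cells are filled, and no difference of dex responses is.

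The second question was how far each depletion lowers the level reached in dex, the comparison by which the study defined dependence on a coregulator. These comparisons share the shNS dex libraries, so they are not independent of each other. Among the genes that the study classed as dex-regulated and dependent on G9a, GLP and HP1γ are both BTG1 and BTG2. Its model accounted for batch by removal of unwanted variation. In dex, BTG1 and BTG2 were both lower than in shNS cells after each of the 3 depletions, and TOB2 was called after none. In shG9a cells BTG1 was at 78.6 ± 1.98% of its shNS level (SD of the 3 replicate ratios; log2 fold change -0.35 ± 0.08, adjusted p = 0.00766, edgeR). BTG2 was at 60.3 ± 10.0% there (log2 fold change -0.74 ± 0.10, adjusted p = 4.37e-05, edgeR). That gave 2 of 3 members called, where 8.80% of all accessions were called.

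In shGLP cells the order of these genes was the opposite. BTG1 was at 59.7 ± 3.04% of its shNS level in dex (log2 fold change -0.75 ± 0.08, adjusted p = 1.77e-06, edgeR) and BTG2 at 78.2 ± 4.76% (-0.36 ± 0.10, adjusted p = 0.0343), with 5.77% of all accessions called. The summed myeloid markers given above were also higher in shGLP cells, and the summed B-cell precursor markers in shG9a and shGLP cells. Single markers were not compared between lines, and the part of these sums in the results was not tested. In shHP1γ cells BTG1 was at 71.4 ± 14.38% (-0.49 ± 0.08, adjusted p = 5.19e-04, edgeR) and BTG2 at 77.2 ± 6.39% (-0.38 ± 0.10, adjusted p = 0.0332), with 4.09% of all accessions called. The log2 fold change of BTG1 in shHP1γ cells was -0.64 without replicate 1 of the shHP1γ dex libraries and -0.39 without replicate 2. Both genes were lower in 3 of 3 replicates after each depletion. TOB2 was at 111 ± 2.41% of its shNS level in shHP1γ cells (0.15 ± 0.05), which did not pass the test over all accessions (adjusted p = 0.0860, edgeR) but did with a filter of at least 5 CPM on average (adjusted p = 0.0412).

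The 2 smaller differences of BTG2 depended on single libraries, and each lost its call under 7 of 36 alternatives. BTG2 stayed called in both lines with 1 factor of unwanted variation in place of the replicate block. In shGLP cells its adjusted p (edgeR) was 0.245 without replicate 3 of the shNS dex libraries, and 0.1335, 0.109 and 0.0714 without replicates 1, 2 and 3 of the shGLP dex libraries. In shHP1γ cells it was 0.0535, 0.0590 and 0.223 without replicates 1, 2 and 3 of the shNS dex libraries and 0.187 without replicate 2 of the shHP1γ dex libraries. Without the replicate block, adjusted p values in dex were 0.302 for BTG2 in shGLP cells, 0.297 for BTG2 in shHP1γ cells and 0.0723 for BTG1 in shG9a cells. With all libraries of replicate 3 left out, those 3 values were 0.407, 0.333 and 0.196, and that of BTG1 in shHP1γ cells was 0.161. BTG2 in shG9a cells and BTG1 in shGLP cells, the larger differences in dex, were called under all 36 alternatives.

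**Figure D3:**
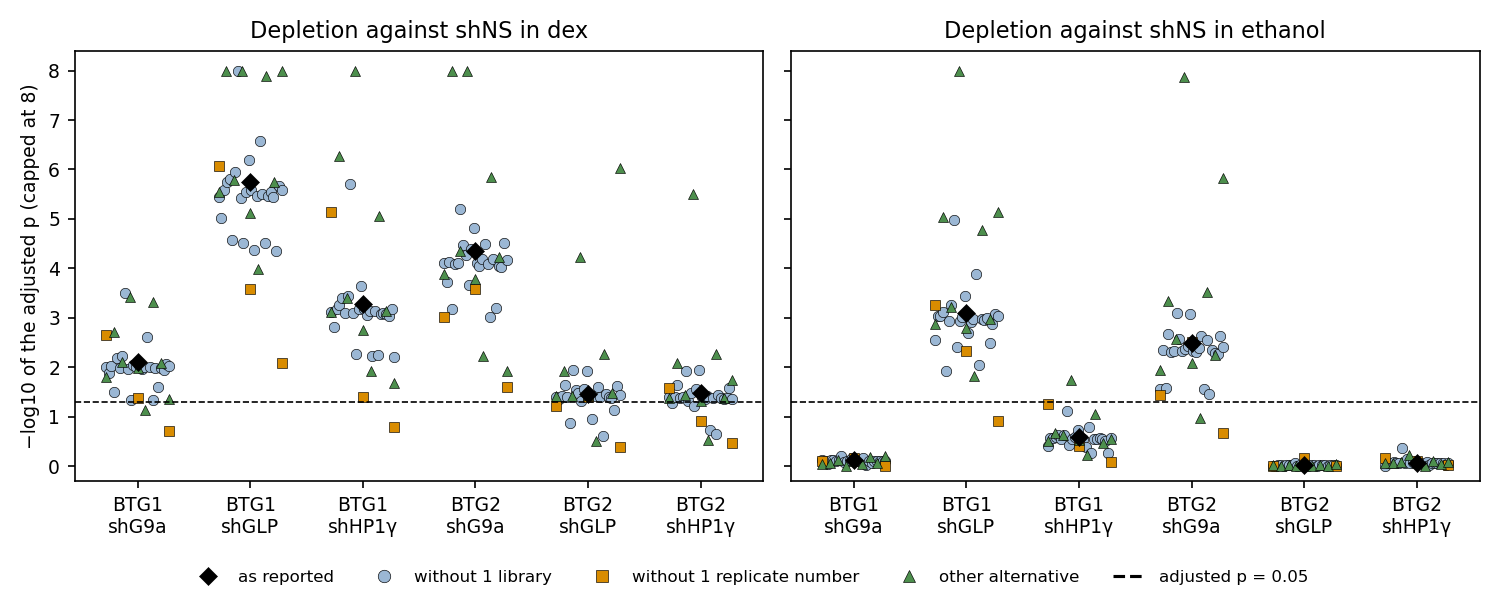
Each point is the −log10 of the adjusted p (y axis, capped at 8) of 1 member and depletion against shNS, in dex (left) and ethanol (right), as reported (diamond) or under 1 of 36 alternatives; the dashed line marks an adjusted p of 0.05. BTG1 in shGLP cells and BTG2 in shG9a cells stay above the line in dex throughout, while BTG2 in shGLP and shHP1γ cells straddles it.

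In ethanol, 1 gene of the pair was called against shNS cells in shG9a and in shGLP cells, and neither in shHP1γ cells. In shG9a cells BTG2 was at 69.6 ± 12.8% of its shNS level (log2 fold change -0.53 ± 0.10, adjusted p = 0.00323, edgeR), lower in 3 of 3 replicates, and BTG1 at 94.98 ± 4.87% (-0.08 ± 0.08, adjusted p = 0.759). This was 1 of 3 members, against 3.73% of all accessions. The BTG2 call was lost without the replicate block (adjusted p = 0.105) and without replicate 3 (adjusted p = 0.209). In shGLP cells BTG1 was at 72.1 ± 4.82% (-0.47 ± 0.08, adjusted p = 7.89e-04, edgeR), lower in 3 of 3 replicates, and BTG2 at 98.7 ± 12.4% (-0.03 ± 0.10, adjusted p = 0.962). This was again 1 of 3 members, against 3.61% of all accessions, and the BTG1 call was lost without replicate 3 (adjusted p = 0.122). In shHP1γ cells BTG1 was at 87.6 ± 8.38% (adjusted p = 0.252) and BTG2 at 95.4 ± 13.3% (adjusted p = 0.840), so that 0 of 3 members were called by edgeR, against 2.91% of all accessions. Only BTG1 had an unadjusted p under 0.05 there, and it was called when no filter on low counts was applied (adjusted p = 0.0183). DESeq2 and limma also called 0 members in this comparison.

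The third question was whether a depletion changes the dex response itself rather than the level in both treatments. The interaction of dex and depletion was negative for BTG1 and BTG2 after all 3 depletions, but no member passed the test over all accessions. The 3 interactions share the shNS libraries of both treatments, so their signs are not independent of each other. For BTG1 the difference of log2 fold changes was -0.27 (95% interval -0.51 to -0.04) in shG9a, -0.27 (-0.51 to -0.04) in shGLP and -0.30 (-0.54 to -0.06) in shHP1γ cells. For BTG2 it was -0.20 (-0.50 to 0.10), -0.33 (-0.63 to -0.03) and -0.31 (-0.60 to -0.01), respectively. Interactions passed the edgeR test for 0.0885%, 0.118% and 0.0197% of all accessions in shG9a, shGLP and shHP1γ cells. By limma and DESeq2, too, 0 members were called at an adjusted p of 0.05. When the model held only the 4 groups compared, BTG1 (adjusted p = 0.00931) and BTG2 (adjusted p = 0.0156) were called for shGLP, where that model called 107 accessions in place of 12. On the linear scale, dex added 679 ± 32.2 CPM of BTG1 in shNS cells, 454 ± 25.2 in shG9a, 346 ± 52.8 in shGLP and 405 ± 134.5 in shHP1γ cells (SD, n = 3). It added 324.5 ± 21.25 CPM of BTG2 in shNS cells, 174 ± 34.4 in shG9a, 205 ± 0.922 in shGLP and 204 ± 26.8 in shHP1γ cells.

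Because BTG1 was lowest in shGLP and BTG2 lowest in shG9a cells, the depleted lines were also compared with each other, a comparison chosen after the values were seen. In dex, shGLP cells had less BTG1 (log2 fold change -0.40 ± 0.08, adjusted p = 0.00269, edgeR) and more BTG2 (0.38 ± 0.10, adjusted p = 0.0197) than shG9a cells, with 8.62% of all accessions called. In ethanol the same held for BTG1 (-0.40 ± 0.08, adjusted p = 0.00348) and BTG2 (0.51 ± 0.10, adjusted p = 0.00325), with 6.23% called. BTG2 was also higher in shHP1γ than in shG9a cells in dex (0.36 ± 0.10, adjusted p = 0.0339; 6.43% of all called) and in ethanol (0.46 ± 0.10, adjusted p = 0.00783; 6.07% of all called). TOB2 was called in that ethanol comparison as well (0.17 ± 0.05, adjusted p = 0.0320), a call lost under 14 of 36 alternatives. BTG1 in shGLP against shHP1γ cells missed the threshold in dex (-0.25 ± 0.08, adjusted p = 0.0987; 4.02% of all called) and in ethanol (-0.28 ± 0.08, adjusted p = 0.0582; 4.20% of all called). It was called under 2 of 36 alternatives in dex and 8 of 36 in ethanol, the latter including DESeq2 (adjusted p = 0.0335) and limma (adjusted p = 0.0487).

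The dex contrasts of BTG2 with shG9a cells were among the less stable of these. The BTG1 differences between shGLP and shG9a cells were called under all alternatives except the one without replicate 3 (adjusted p = 0.109 in dex and 0.131 in ethanol), which also ended the BTG2 call in ethanol (0.125). Without the replicate block, the adjusted p of BTG2 was 0.184 for shGLP and 0.242 for shHP1γ against shG9a cells in dex, and 0.0803 and 0.112 in ethanol. With TMM scaling the adjusted p of BTG2 in dex was 0.0528 for shGLP and 0.0689 for shHP1γ against shG9a cells. For shGLP against shG9a in dex it was 0.0982 and 0.0630 without replicates 1 and 3 of the shG9a dex libraries, and 0.0727 and 0.0879 without replicates 2 and 3 of the shGLP dex libraries. With all libraries of replicate 1 or replicate 3 left out, it was 0.0812 and 0.195 (edgeR). For shHP1γ against shG9a in dex it was 0.137 and 0.0805 without replicates 1 and 3 of the shG9a dex libraries, and 0.0951 and 0.128 without replicates 1 and 3 of the shHP1γ dex libraries. With only the groups compared in the fit, it was 0.319 (edgeR). Without all libraries of replicate 1 or replicate 3, it was 0.194 and 0.244. In ethanol the call of BTG2 for shHP1γ against shG9a cells was lost without replicate 1 of the shHP1γ ethanol libraries (0.0698). The same call was lost without replicate 3 of the shG9a ethanol libraries (0.0587), and without all libraries of replicate 1 (0.117) or replicate 3 (0.0967).

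The number of BTG1 counts per BTG2 count within a library needs no scaling between libraries. In shNS cells it was 1.84, 2.03 and 2.13 in ethanol and 2.06, 2.07 and 2.01 in dex. In shG9a cells it was 2.74, 2.42 and 3.15 in ethanol and 2.91, 2.31 and 2.91 in dex, above all 6 shNS libraries. In shGLP cells it was 1.35, 1.39 and 1.67 in ethanol and 1.64, 1.46 and 1.61 in dex, below all 6 shNS libraries. In shHP1γ cells it was 1.67, 1.79 and 2.10 in ethanol and 2.13, 1.71 and 1.80 in dex, overlapping shNS in both treatments. The means in ethanol and dex were close within each line, for instance 2.77 ± 0.366 and 2.71 ± 0.343 (SD, n = 3) in shG9a cells. No test was run on these ratios, and an exact permutation test of 3 libraries against 3 could not have given a p below 0.1. The ratio compares libraries and is not a ratio of transcript levels, because transcript length was not taken into account.

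**Figure D4:**
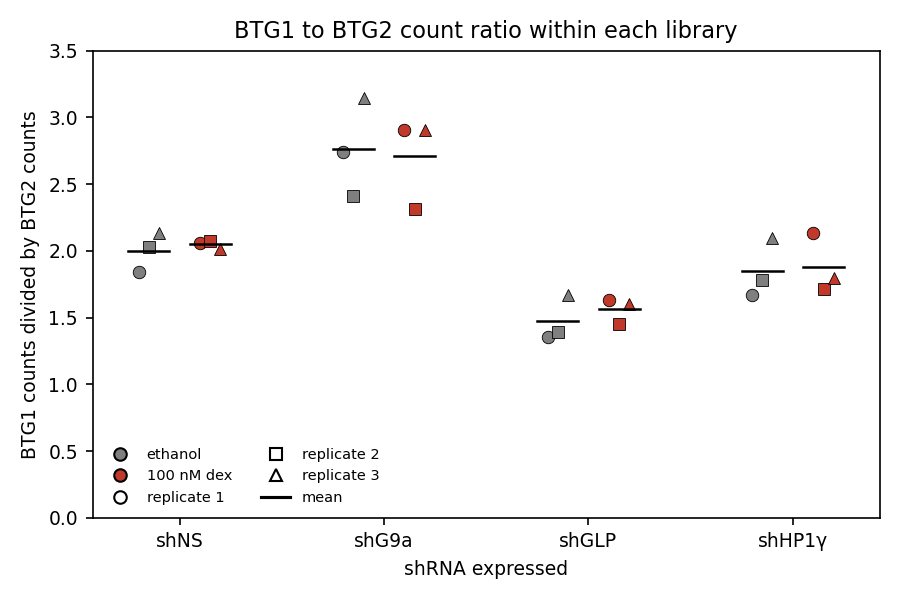
BTG1 counts divided by BTG2 counts (y axis, linear from 0) in each library of the 4 lines in ethanol (grey) and dex (red); shapes are replicate numbers and lines are means of 3. The shG9a libraries, 2.31 to 3.15, lie above and the shGLP libraries, 1.35 to 1.67, below all shNS libraries (1.84 to 2.13), with little change between ethanol and dex.

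Over the 24 libraries the log2 levels of BTG1 and BTG2 had a Pearson r of 0.84, while TOB2 had an r of -0.25 with BTG1 and -0.10 with BTG2. These libraries share 8 groups, so the correlations mostly describe group means and are given without a p. Among 5606 accessions with at least 5 CPM on average, those most like BTG1 were of CLEC18C (r = 0.96), SOCS2-AS1 (r = 0.96) and MSL3 (r = 0.96). CLEC18C has near-identical copies, and its counts may include reads of these. The accessions most like BTG2 were of METTL7A (r = 0.97), SOCS1 (r = 0.96) and TAF8 (r = 0.95). Those most like TOB2 were of ZC3H4 (r = 0.90) and RPAP1 (r = 0.89).

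The partners of the family were described by lists, counted against the share of all accessions called in each comparison as given above. Of the CCR4-NOT list, 9 of 53 accessions, covering 8 of 12 genes, passed the filter. For other lists they were 3 of 12 (other deadenylation), 6 of 50 (adaptors), 13 of 38 (G1 regulators) and 6 of 19 (SMAD). In dex-treated against ethanol-treated shNS cells, 0 of the 9 tested accessions of the CCR4-NOT complex passed the edgeR test. Their median log2 fold change was -0.15 against -0.03 for all accessions. The smallest adjusted p among them was 0.0708, for CNOT6, a catalytic subunit (-0.15 ± 0.05). An accession of CNOT8, one of the deadenylases that BTG proteins bind, had a log2 fold change of -0.24 ± 0.24 (adjusted p = 0.661, edgeR). It was at only 2.17 ± 0.540 CPM in ethanol and 1.84 ± 0.198 CPM in dex, so this value rests on low counts. CNOT11, a subunit named after its values were seen, was lower in shG9a than in shNS cells both in dex (-0.81 ± 0.05, adjusted p = 1.42e-09) and in ethanol (-0.87 ± 0.05, adjusted p = 5.29e-10). It was the only accession of the complex called in those comparisons. CNOT6 was higher in shGLP cells in dex (0.20 ± 0.05, adjusted p = 0.0186, edgeR), and no accession of the complex was called in shHP1γ cells. Of the other deadenylation and poly(A)-binding genes, 3 accessions were tested, including PABPC1, the main cytoplasmic poly(A)-binding protein (0.12 ± 0.06, adjusted p = 0.255), and 0 were called by edgeR for dex in any line or for any depletion. The 10 accessions of the 2 arginine methyltransferases on the list, and the single one of BTG4, a further family gene, did not pass the filter.

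Of the adaptors that bring CCR4-NOT to specific mRNAs, 3 of 6 tested accessions rose with dex in shNS cells and 0 fell, with a median log2 fold change of 0.42. ZFP36L2, which binds AU-rich elements, was at 295, 312 and 316 CPM in ethanol and at 772, 724 and 776 CPM in dex (log2 fold change 1.30 ± 0.08, adjusted p = 1.89e-11, edgeR). It also rose in shG9a (0.96 ± 0.08), shGLP (1.03 ± 0.08) and shHP1γ cells (1.050 ± 0.08), with adjusted p values of at most 1.08e-08. Unlike BTG1 and BTG2, it was called in none of the 6 comparisons of a depleted line with shNS cells, in which its log2 fold changes ran from -0.20 to 0.24. A test of that difference between genes was not made. The log2 fold change of ZFP36L2 with dex was smaller in each depleted line than in shNS cells, as for BTG1 and BTG2. No adaptor accession was called for such a difference of dex responses. ZFP36, a relative of ZFP36L2, rose in shNS cells (0.43 ± 0.09, adjusted p = 0.00186, edgeR). So did an accession of TNRC6B, which links microRNA complexes to CCR4-NOT (0.98 ± 0.25, adjusted p = 0.0107), at low levels of 1.95 ± 0.544 CPM in ethanol and 3.82 ± 0.613 CPM in dex. No adaptor accession was called for any depletion, in dex or in ethanol.

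Of the G1 regulators, the cell-cycle genes on which antiproliferative proteins are reported to act, 2 of 13 tested accessions rose and 2 fell with dex in shNS cells. CCNE2, cyclin E2, rose (0.38 ± 0.08, adjusted p = 0.00323, edgeR) and CDK4, the kinase partner of D-type cyclins, fell (-0.29 ± 0.09, adjusted p = 0.0408). The other 2 calls were both accessions of CCND3, cyclin D3, and had opposite signs. One fell (-0.85 ± 0.22, adjusted p = 0.0107) from 5.22 ± 2.17 to 2.84 ± 0.689 CPM, and the other rose (1.66 ± 0.49, adjusted p = 0.0298) from 0.262 ± 0.0780 to 0.850 ± 0.252 CPM, so that CCND3 has no single direction at the level of accessions. CCNE2 was lower than in shNS cells in dex after depletion of GLP (-0.35 ± 0.08, adjusted p = 0.0105) and HP1γ (-0.53 ± 0.08, adjusted p = 3.79e-04). The higher calls there, named after their values were seen, were 1 of 2 tested accessions of CDKN2C, a CDK inhibitor, in shGLP cells (0.27 ± 0.07, adjusted p = 0.0295) and CCND2, cyclin D2, in shHP1γ cells (0.80 ± 0.17, adjusted p = 0.00567), where CCND2 was also higher in ethanol (0.64 ± 0.17, adjusted p = 0.0452). Of the SMAD proteins, which TOB proteins can bind, 3 of 6 tested accessions rose with dex in shNS cells and 0 fell, and all 3 were of SMAD1. The first had a log2 fold change of 0.78 ± 0.18 (adjusted p = 0.00430, edgeR). The other two had values of 0.41 ± 0.13 (adjusted p = 0.0383) and 0.65 ± 0.21 (adjusted p = 0.0489). No SMAD accession was called for any depletion.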

How the data were processed

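RNA-seq of 24 Nalm6 libraries was re-analysed. Per the study's methods, paired-end reads were trimmed and aligned by HISAT2 to the hg19 build (GRCh37), and the authors deposited whole-number counts per RefSeq accession made with GenomicAlignments. The counting mode, use of strand and RefSeq release are not given in the sources used here. A second deposited table holds the authors' own fold changes and adjusted p values, none of which were used, only its gene symbols. These named 9872 accessions and RefSeq annotation the rest, 63741 of 64519 in all.

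Counts were tested with edgeR 4.0.16 in R 4.3.3. Accessions with more than 1 CPM in at least 2 libraries were kept (10167, of them 3 of the 8 of the members), libraries were scaled by upper quartile factors, and 1 model of 8 groups with the replicate number as a block was fitted to all 24 libraries (quasi-likelihood F test). Adjusted p values are Benjamini-Hochberg values over all accessions tested, and a call is an adjusted p of at most 0.05. Per the labels, the biological replicates of each condition were made on different days. Whether same-numbered replicates of different groups shared a day is not given in the sources used here. Deviations of same-numbered libraries from their group means correlated with r from -0.0025 to 0.64 (median 0.20, above 0.1 in 70 of 84 pairs). Within groups no library duplicated another, since chi-square per degree of freedom was at least 3.27 in the 24 replicate pairs. Pairs of libraries from different groups were not compared in this way. Intervals are 95% and come from the quasi-likelihood fit, so they include the estimated spread between replicates.

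Alternatives were TMM, DESeq2 1.42.0, limma 3.58.1 on log2(CPM + 1), other filters, no replicate block, 1 factor of unwanted variation in its place, accessions summed per gene, fits of only the groups compared, and fits without each replicate number or library. Members and lists were chosen with earlier results of these data known. Named beside the members were the depleted genes, at most 4 accessions per list with the smallest adjusted p for dex in shNS cells, and the 3 accessions most correlated with each member tested, of which 1 is not reported here.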

Additional observations from a re-analysis of the deposited data

How the results depend on the processing

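Under the 36 alternatives, 10 of the 23 called values of single members stayed called throughout, among them the 8 dex responses of BTG1 and BTG2, and no called value changed sign. Leaving out replicate 3 ended 6 member calls against shNS, and leaving out the replicate block ended 4. Without the replicate block, members called in dex fell from 2 to 1 for each of shG9a, shGLP and shHP1γ, members called in ethanol fell from 1 to 0 for shG9a, and no other count of members called against ethanol or shNS changed. With 1 replicate number or 1 library left out, the counts in dex ran from 1 to 2 for shG9a and shGLP and from 0 to 2 for shHP1γ, and in ethanol from 0 to 1 for shG9a and shGLP. In ethanol, the count for shHP1γ was 1 without a filter on low counts. The interaction of dex and GLP depletion was called for 2 members with only the groups compared in the fit. The sign changes were all in values that were not called and lay near 0. For the dex response of TOB2 in shGLP cells the log2 fold change was 0.0002 with TMM scaling, 0.0207 with at least 5 CPM on average, and -0.0442 to 0.0088 with libraries left out; in shHP1γ cells it was -0.0173 without a filter and -0.0118 to 0.0251 with libraries left out. Without a filter TOB2 was at -0.0040 in shGLP and -0.0090 in shHP1γ cells against shNS in ethanol. With libraries left out, TOB2 in shG9a cells in dex ran from -0.0350 to 0.0535, and BTG2 in ethanol from -0.1357 to 0.0242 in shGLP and from -0.2082 to 0.0568 in shHP1γ cells. The cause of these changes was not tested. TOB1 gave no value under any alternative.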
